A study of Mus musculus with 5 samples.

Results

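The ES cell marker genes described here are 10 genes, Dppa2, Dppa3, Dppa4, Dppa5a, Tcl1, Fbxo15, Zfp42, Utf1, Gdf3 and Tdh, whose expression marks undifferentiated mouse ES cells and which are not counted among the core pluripotency transcription factors. They were taken by name and make up 10 of the 55070 gene symbols in the expression table. All 10 passed the filter of at least 1 TPM in at least 2 samples and are among the 12514 genes tested. ES cells maintain a network of transcription factors that keeps them able to self-renew and to form every germ layer. Marker genes of this kind are switched on by that network in the early embryo and germ line and are silenced as cells differentiate, and many of them encode chromatin, RNA-binding or metabolic proteins.

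Total RNA was sequenced from 3 WT samples, which were E14Tg2a parent cells, a mouse ES cell line, and from 2 C3G KO samples, E14Tg2a cells in which exons 2 to 4 of Rapgef1, the gene for C3G, had been exchanged for a puromycin resistance cassette. All were grown without treatment on gelatin in GMEM with serum and LIF. The C3G KO lines of the study are clones (B5, D1 and D3), and the labels do not give which clone each of the 2 libraries came from, so clone and genotype cannot be told apart here. The WT samples were the parent line and not clones carrying the vector alone, and although the study calls the samples independent, the labels do not say whether they were separate cultures or clones, so the p-values measure spread between samples that may in part be technical.

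Rapgef1 itself was reported first as a check of the labels. It had 11.56, 10.31 and 9.64 TPM (transcript numbers relative to transcript length and to the sample's total) in WT 1 to 3, against 3.92 and 5.55 in C3G KO 1 and 2. Both C3G KO samples lay below all WT samples, and the sum includes exons outside the replaced part. The log2 fold change was -1.02 (limma, adjusted p = 0.000305) for TPM as deposited and -0.41 (limma, adjusted p = 0.00444) after the scaling described next. With an added correction for transcript length and GC content it was -0.22 (limma, adjusted p = 0.0360). Of all tested genes, 75.7% had both C3G KO samples below all WT samples as deposited, and 29.3% after scaling. At an adjusted p under 0.05 (limma), 56.8% and 16.6% of them were lower. The fall of Rapgef1 is therefore only a weak check of the labels.

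TPM are relative to all RNA of a sample, and the make-up of that RNA varied between the samples. Small and structural RNA genes held 62.9%, 63.5% and 67.2% of the TPM in WT 1 to 3 and 77.8% and 69.6% in C3G KO 1 and 2, and protein-coding genes held 31.8%, 31.3% and 28.8% in WT and 18.6% and 26.0% in C3G KO. The groups did not overlap in either share (exact permutation test over samples, p = 0.1, the smallest that 10 arrangements allow). For this reason the value of each marker gene is given as deposited and also with median-of-ratios scaling. In this scaling, a sample's TPM are divided by how far its typical gene lies above or below the average sample. Over all tested genes, it moved the median log2 fold change from -0.55 to 0.0052. Among common reference genes, Gapdh had a log2 fold change of -0.30 as deposited and 0.40 after scaling, and Actb of -1.04 and -0.34. Fold changes are on the scale log2(TPM + 1), which understates the change of low genes, and the read depth behind a TPM value is unknown.

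The ES cell identity of the samples was read from 8 marker genes, Pou5f1, Sox2, Nanog, Esrrb, Zfp42, Dppa5a, Utf1 and Tdgf1. Their summed level was 2223, 2345 and 2295 TPM in the WT samples, in replicate order, and 1771 and 2311 in C3G KO samples, with Dppa5a the most abundant. Without Dppa5a, the other 7 summed to 916, 914 and 873 TPM in WT samples and to 519 and 759 in C3G KO samples as deposited, and the C3G KO sums with and without Dppa5a lay above WT after scaling (without it 686, 749 and 791 in WT, 839 and 838 in C3G KO). Of the 8 genes 3 are members, and the 5 others did not pass the threshold as deposited or after scaling. These 5 alone summed to 723, 732 and 717 TPM in WT samples and to 423 and 605 in C3G KO samples as deposited. After scaling their sums were 542, 600 and 650 in WT and 684 and 668 in C3G KO. With the correction for transcript length and GC content, Esrrb was higher past the threshold (0.27, limma-adjusted p = 0.0174), where it had 0.12 after scaling alone and -0.57 as deposited. Pou5f1, which encodes OCT4, was at 357, 371 and 400 TPM in WT samples and at 230 and 298 in C3G KO samples. The markers of ES cells were thus present in both groups. Fewer cells of a type and less RNA per cell cannot be told apart in such bulk samples.

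After median-of-ratios scaling, 4 of the 10 marker genes rose in C3G KO cells (Dppa3, Dppa5a, Tcl1 and Fbxo15), Tdh fell, and Dppa2, Dppa4, Zfp42, Utf1 and Gdf3 did not pass the threshold (limma, adjusted p under 0.05, over all tested genes). Among all 12514 tested genes, 14.1% were higher and 16.6% lower by the same rule. For TPM as deposited none of the 10 rose, also at an unadjusted p under 0.05, while Dppa4 and Tdh fell, against 1.45% of all tested genes higher and 56.8% lower. Of the other genes named here as higher after scaling, only Cubn also passed as higher for TPM as deposited, whereas all those named as lower also passed there. With an added correction for transcript length and GC content the same 4 genes rose and Tdh fell, against 14.7% and 15.7% of all tested genes. The median log2 fold change of the 10 genes was 0.19 after scaling, where that of all tested genes was 0.0052, and -0.49 as deposited, where that of all tested genes was -0.55.

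Both C3G KO samples lay above all WT samples for 7 of the 10 genes after scaling and below them for 1, Tdh, and the groups overlapped for Dppa4 and Utf1. Of all tested genes, 29.5% lay above and 29.3% below in this way. As deposited, none of the 10 genes lay above and 5 lay below (Dppa2, Dppa4, Zfp42, Gdf3 and Tdh), against 1.49% and 75.7% of all tested genes.

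**Figure D1:**
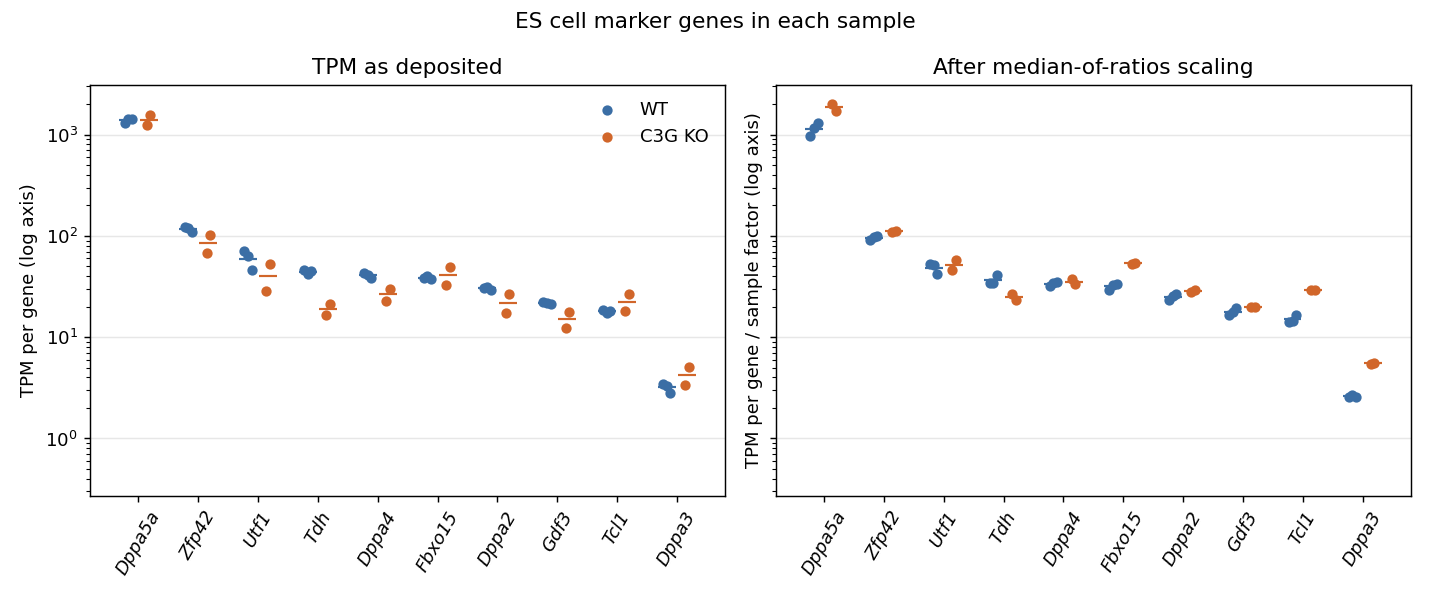
Level of each ES cell marker gene in every sample, on a log axis, as TPM as deposited (left) and divided by the sample's median-of-ratios factor (right). Points are single samples (3 WT, blue, and 2 C3G KO, orange), lines are group means, and the right panel shows Tcl1, Fbxo15, Dppa5a and Dppa3 higher and Tdh lower in both C3G KO samples than in any WT sample.

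The levels of the marker genes spanned a wide range. In WT cells the order of mean TPM was Dppa5a, Zfp42, Utf1, Tdh, Dppa4, Fbxo15, Dppa2, Gdf3, Tcl1 and Dppa3, from 1387 ± 68.9 TPM (SD, n = 3) for Dppa5a to 3.19 ± 0.318 TPM (SD, n = 3) for Dppa3. The ranges over the WT samples overlapped between Tdh and Dppa4 and between Dppa4 and Fbxo15, and the other neighbours in this order did not overlap. In C3G KO cells the order was Dppa5a, Zfp42, Fbxo15, Utf1, Dppa4, Tcl1, Dppa2, Tdh, Gdf3 and Dppa3. Each pair of neighbours from Fbxo15 down to Gdf3 overlapped there, so that their order was not resolved. Tdh stood 4th in WT and 8th in C3G KO cells, and Tcl1 stood 9th in WT and 6th in C3G KO cells.

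Dppa2 and Dppa4 encode partner proteins with a DNA-binding SAP domain that act on chromatin and lie side by side on chromosome 16. Dppa2 (chr16:48303908-48319723, GRCm38) had 30.90, 31.09 and 29.52 TPM in WT samples and 17.24 and 26.65 in C3G KO samples. Dppa4 (chr16:48283733-48294237) had 43.08, 41.53 and 38.26 TPM in WT samples and 23.00 and 30.01 in C3G KO samples. As deposited, C3G KO 1 was the lowest sample for both genes and both C3G KO samples lay below WT. After scaling, the log2 fold change of Dppa2 was 0.18 (95% interval -0.016 to 0.38, limma-adjusted p = 0.140) and -0.49 as deposited (limma, adjusted p = 0.0976). That of Dppa4 was 0.059 after scaling (95% interval -0.13 to 0.25, limma-adjusted p = 0.606) and -0.62 as deposited (limma, adjusted p = 0.0410). The direction of both genes thus turned with the scaling.

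The annotated transcripts of Dppa4 did not move alike. The main one, ENSMUST00000096045, with 7 exons, had 34.14, 31.43 and 30.25 TPM in WT samples and 21.02 and 27.45 in C3G KO samples. The second, ENSMUST00000050705, had 6.09, 7.89 and 6.68 TPM in WT samples and 1.46 and 1.63 in C3G KO samples. It lacks exon 4 of the main one, 51 bases at chr16:48289328-48289378, and its exon 3 ends earlier, at 62 in place of 167 bases. Its share of the gene's TPM, which does not depend on the scaling between samples, was 14.1%, 19.0% and 17.5% in WT 1 to 3 and 6.35% and 5.43% in C3G KO 1 and 2. This share was singled out after its values were seen and was not tested. A split of reads between overlapping transcripts is an estimate of the quantification tool. A lower share was not particular to Dppa4. For Zfp42, Dppa2 and Tdh, the second transcript also had a lower share in both C3G KO samples than in any WT sample. Mean shares in WT and C3G KO were 11.3% and 4.67% (Zfp42), 8.96% and 5.58% (Dppa2) and 5.80% and 2.98% (Tdh). Those of Dppa3, Fbxo15, Gdf3 and Tcl1 overlapped between the groups. Other minor transcripts of Zfp42, Tcl1 and Tdh had higher shares in C3G KO. These shares were not tested either.

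**Figure D2:**
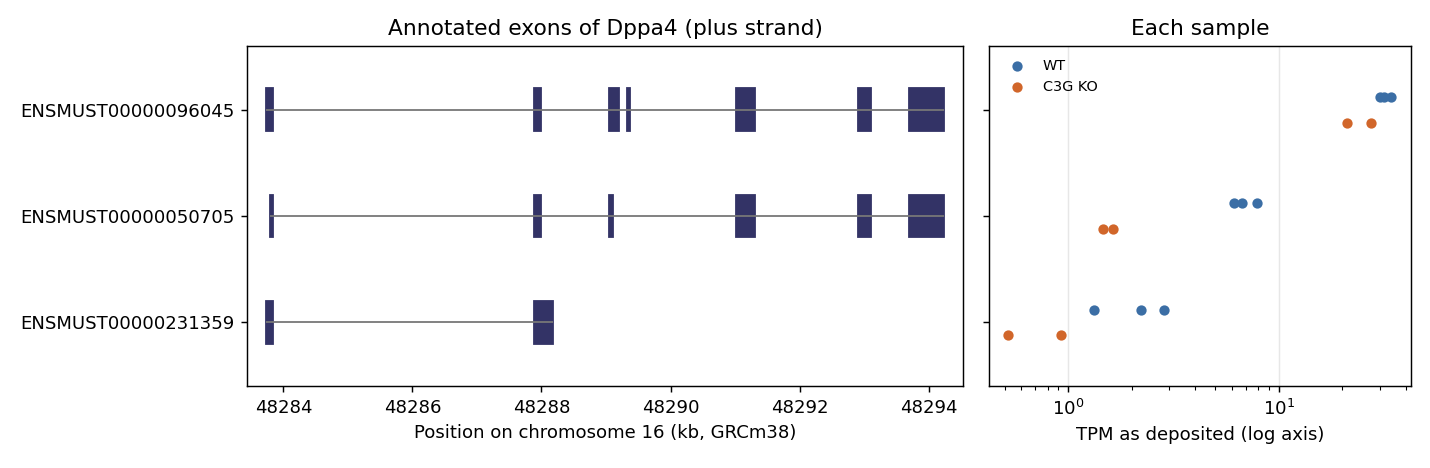
Exons of the annotated Dppa4 transcripts along chromosome 16 in kb (left, boxes are exons) and the TPM of each transcript in every sample on a log axis (right, WT blue with 3 samples, C3G KO orange with 2). ENSMUST00000050705 lies at 6.09 to 7.89 TPM in WT and at 1.46 and 1.63 TPM in C3G KO.

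Morc1, which encodes an ATPase needed in male germ cells, was the other tested gene within 250 kb of Dppa2 and Dppa4. It had 12.05, 11.75 and 10.20 TPM in WT samples and 12.91 and 19.38 in C3G KO samples. Both C3G KO samples lay above WT even as deposited. The log2 fold change was 1.10 after scaling (standard error, SE, 0.062, limma-adjusted p = 0.000258) and 0.45 as deposited, which did not pass (limma, adjusted p = 0.108).

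Genes of the 2-cell stage embryo that DPPA2 and DPPA4 are known to switch on in ES cells were taken from a list of 14, of which 8 were tested. Of these 7 fell, none rose and 1 did not pass after scaling, and the median log2 fold change was -0.62 (0.0052 for all tested genes). As deposited all 8 fell, with a median of -1.03 (-0.55 for all tested genes). Zscan4f had 10.04, 12.13 and 10.74 TPM in WT samples and 2.63 and 3.27 in C3G KO samples, a log2 fold change of -1.02 after scaling (limma, adjusted p = 0.00290). Zscan4e had a log2 fold change of -0.71 (limma, adjusted p = 0.000760). The Zscan4 genes are near-identical copies that share reads, so that their values are uncertain, and 6 of the 7 falls are theirs and not independent of each other.

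Dppa3, also known as Stella, is a maternal factor that limits DNA methylation by holding back UHRF1. It was the lowest of the marker genes (chr6:122626410-122630272), with 3.46, 3.27 and 2.84 TPM in WT samples and 3.38 and 5.06 in C3G KO samples. As deposited the groups overlapped, since C3G KO 1 lay among the WT samples. After scaling the levels were 2.59, 2.68 and 2.57 in WT and 5.46 and 5.59 in C3G KO, and the log2 fold change was 0.85 (SE 0.060, limma-adjusted p = 0.000460). It was 0.63 with the length and GC correction (limma, adjusted p = 0.00166) and 0.30 as deposited, where it did not pass (limma, adjusted p = 0.215).

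Of the 9 DNA methylation genes listed as partners of Dppa3, 2 rose after scaling, 1 fell and 6 did not pass. Their median log2 fold change was 0.0093 (0.0052 for all tested genes), or -0.66 as deposited (-0.55 for all tested genes). The de novo methyltransferase genes Dnmt3a and Dnmt3b rose, with log2 fold changes of 0.63 and 0.44 (limma, adjusted p = 0.00425 and 0.0151), and that of Dnmt3b was below 0 as deposited, at -0.24. Dnmt3b no longer passed without WT replicate 2 (0.43) or C3G KO replicate 2 (0.32). Tet3, which encodes an enzyme that oxidises methylated cytosine, had 2.81, 2.43 and 1.81 TPM in WT samples and 0.490 and 0.770 in C3G KO samples, and fell with a log2 fold change of -0.67 (limma, adjusted p = 0.00417). As deposited none of the 9 rose and 5 fell, beside 1.45% and 56.8% of all tested genes.

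Dppa5a encodes an RNA-binding KH domain protein and had the highest level of the marker genes (chr9:78367052-78368177). It had 1307, 1431 and 1422 TPM in WT samples and 1252 and 1552 in C3G KO samples. As deposited C3G KO 1 was the lowest and C3G KO 2 the highest of the 5 samples, and the log2 fold change was 0.0084 (limma, adjusted p = 0.977). After scaling it was 0.71 (SE 0.18, limma-adjusted p = 0.0307), and with the length and GC correction 0.47 (limma, adjusted p = 0.0495). With any 1 sample left out the log2 fold change stayed between 0.59 and 0.83, but the call was lost in most of these fits. The adjusted p of limma was 0.0694 without WT replicate 1, 0.0938 without WT replicate 2, 0.134 without C3G KO replicate 1 and 0.0664 without C3G KO replicate 2. With quantile normalization the log2 fold change of Dppa5a was 0.054 (limma, adjusted p = 0.788). Dppa5a is a short gene with a mean transcript length of 619 bases, and across all tested genes the log2 fold change went down with transcript length (Spearman's rho -0.31 over genes, which are not independent replicates). Its pseudogenes Dppa5b and Dppa5c were listed at 0 in all samples. Of 9 tested genes within 250 kb of Dppa5a, 4 rose, 1 fell and 4 did not pass after scaling. As deposited none of these 9 rose and 3 fell, beside 1.45% and 56.8% of all tested genes.

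Relatives of the members outside the 10 genes were mostly silent. Tcl1b1 to Tcl1b5, copies beside Tcl1 on chromosome 12, had at most 0.1 TPM in any sample, and Dppa1 at most 0.08 TPM. Of the 4 relatives that were tested, 2 rose and 2 did not pass after scaling. As deposited none of the 4 rose and 2 fell, beside 1.45% and 56.8% of all tested genes. Ooep, a maternal KH domain gene next to Dppa5a, had 10.71, 11.32 and 10.40 TPM in WT samples and 9.69 and 12.75 in C3G KO samples, with a log2 fold change of 0.68 after scaling (limma, adjusted p = 0.00352) and 0.039 as deposited. For Khdc3, another maternal KH domain gene, it was 0.57 after scaling (limma, adjusted p = 0.00499).

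Tcl1 encodes a cofactor that binds AKT kinases and raises their activity. Tcl1 (chr12:105216750-105222793) had 18.71, 17.49 and 18.24 TPM in WT samples and 18.21 and 26.67 in C3G KO samples. C3G KO 1 lay among the WT samples and C3G KO 2 above all of them as deposited, where the log2 fold change was 0.27 (limma, adjusted p = 0.347). After scaling Tcl1 had 14.02, 14.34 and 16.52 in WT and 29.4 in both C3G KO samples, a log2 fold change of 0.93 (SE 0.086, limma-adjusted p = 0.00102). This was the largest of the 10 genes on the log2(TPM + 1) scale, while the ratio of mean scaled levels was larger for Dppa3 (2.11) than for Tcl1 (1.97). It was 0.87 with the length and GC correction. Of the 3 AKT kinase genes, Akt1 and Akt2 fell after scaling, with log2 fold changes of -0.66 and -0.29 (limma, adjusted p = 0.00570 and 0.0183), and the other did not pass. Akt2 no longer passed without WT replicate 2 (-0.31) or C3G KO replicate 2 (-0.26). Akt1 had 17.70, 17.72 and 18.50 TPM in WT samples and 5.45 and 8.26 in C3G KO samples, below WT on both scales.

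Fbxo15, an F-box gene that is a target of OCT4 and SOX2, encodes the substrate-binding part of an SCF ubiquitin ligase. Fbxo15 (chr18:84934782-84981473) had 38.78, 40.25 and 37.26 TPM in WT samples and 32.84 and 48.99 in C3G KO samples. As deposited the 2 C3G KO samples lay on either side of WT, and the log2 fold change was 0.049 (limma, adjusted p = 0.871). After scaling the levels were 29.0, 33.0 and 33.8 in WT and 53.1 and 54.1 in C3G KO, a log2 fold change of 0.73 (SE 0.086, limma-adjusted p = 0.00232). Of 4 tested genes within 250 kb of Fbxo15, 1 rose and 3 did not pass after scaling. As deposited none of these 4 rose and 3 fell, beside 1.45% and 56.8% of all tested genes. Cyb5a rose with 0.54 after scaling (limma, adjusted p = 0.0141) but did not pass as deposited (-0.14) or with the length and GC correction (0.33). Timm21, a mitochondrial import gene on the opposite strand within the span of Fbxo15, had a log2 fold change of -0.28 after scaling (limma, adjusted p = 0.0677), and was lower past the threshold as deposited (-0.86), with the length and GC correction (-0.31) and without WT replicate 1 (-0.35). Without knowledge of strand in the counting, reads from the overlap cannot be assigned to either gene with certainty.

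Of 12 tested SCF ligase and F-box genes other than Fbxo15, 2 rose after scaling, 1 fell and 9 did not pass, and the median log2 fold change was 0.084 (0.0052 for all tested genes), or -0.54 as deposited. As deposited none of the 12 rose and 6 fell, beside 1.45% and 56.8% of all tested genes. The ligase subunit gene Rbx1 and the F-box gene Fbxo22 had log2 fold changes of 0.31 and 0.31 (limma, adjusted p = 0.0461 and 0.0193), while as deposited their direction was the opposite, with -0.37 and -0.36. Rbx1 no longer passed with the length and GC correction (0.14), nor without WT replicate 1 (0.27) or 2 (0.29) or C3G KO replicate 1 (0.26) or 2 (0.36), and Fbxo22 no longer without WT replicate 2 (0.30) or C3G KO replicate 1 (0.34) or 2 (0.27). Fbxw7, whose product targets MYC and cyclin E, fell with a log2 fold change of -0.61 (limma, adjusted p = 0.00116).

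Zfp42, better known as Rex1, and Utf1 encode nuclear proteins that are lost early when ES cells differentiate. Zfp42 (chr8:43295063-43306980) had 122, 119 and 110 TPM in WT samples and 67.5 and 101 in C3G KO samples. The C3G KO samples lay below WT as deposited and above WT after scaling, with log2 fold changes of -0.49 (limma, adjusted p = 0.106) and 0.20 (95% interval 0.0075 to 0.39, limma-adjusted p = 0.104). The processed pseudogene Zfp42-ps1 was at 8.87 to 9.21 TPM in WT and at 5.29 and 5.71 TPM in C3G KO, and reads it may share with Zfp42 make both values uncertain. Utf1 (chr7:139943789-139945112) had 70.14, 62.99 and 46.08 TPM in WT samples and 28.36 and 52.88 in C3G KO samples. As deposited it had the largest relative spread of the 10 genes within both groups (coefficient of variation 20.7% in WT and 42.7% in C3G KO), and after scaling Dppa5a had the largest in WT (13.6%). The groups overlapped for Utf1 on both scales, with a log2 fold change of 0.095 after scaling (95% interval -0.26 to 0.45, limma-adjusted p = 0.655) and -0.59 as deposited (limma, adjusted p = 0.0536). Of 9 tested genes within 250 kb of Utf1, 4 rose, 2 fell and 3 did not pass after scaling. As deposited none of these 9 rose and 3 fell, beside 1.45% and 56.8% of all tested genes.

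Gdf3 encodes a ligand of the TGF-beta family that acts with the coreceptor encoded by Tdgf1 in Nodal-type signalling. Gdf3 (chr6:122605403-122610087) had 22.07, 21.66 and 21.29 TPM in WT samples and 12.41 and 17.79 in C3G KO samples. Both C3G KO samples lay below WT as deposited, where the log2 fold change was -0.51 (limma, adjusted p = 0.0763), and above WT after scaling, where it was 0.15 (95% interval -0.048 to 0.34, limma-adjusted p = 0.212). Of 11 other tested genes of Nodal-type signalling, 1 rose, 2 fell and 8 did not pass after scaling, with a median log2 fold change of -0.14 (0.0052 for all tested genes). As deposited none of the 11 rose and 7 fell, beside 1.45% and 56.8% of all tested genes. Their median was then -0.69, and that of all tested genes -0.55. Lefty1, an inhibitor of Nodal, rose with a log2 fold change of 0.75 after scaling (limma, adjusted p = 0.00338) and did not pass as deposited (0.069). The signal transducer genes Smad3 and Smad2 fell with -0.67 and -0.23 after scaling (limma, adjusted p = 0.00414 and 0.0424). The call of Smad2 was lost with the length and GC correction (-0.19) and with any 1 sample left out (-0.25, -0.22 and -0.21 without WT replicates 1 to 3, -0.19 and -0.26 without C3G KO replicates 1 and 2).

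Dppa3 and Gdf3 lie in the same gene cluster on chromosome 6 with Nanog and Slc2a3. Dppa3 rose after scaling while Nanog, with 77.11, 78.56 and 70.53 TPM in WT samples and 43.47 and 74.75 in C3G KO samples, did not pass (log2 fold change 0.29, limma-adjusted p = 0.0713, and -0.39 as deposited). Nanog passed as higher in 1 of 17 alternatives (lowest limma-adjusted p = 0.0275). The glucose transporter gene Slc2a3 and the transcription factor gene Foxj2 fell after scaling, with log2 fold changes of -0.44 and -0.42 (limma, adjusted p = 0.0186 and 0.0141). These calls were lost without WT replicate 2 (-0.47 and -0.38), C3G KO replicate 1 (-0.45 and -0.43) or C3G KO replicate 2 (-0.42 and -0.42), and that of Foxj2 also with the length and GC correction (-0.28). After scaling, genes of this cluster thus had different directions.

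Tdh encodes threonine dehydrogenase, a mitochondrial enzyme on which mouse ES cells depend to make glycine and acetyl-CoA from threonine. Tdh (chr14:63492347-63509092) had 46.06, 41.83 and 45.42 TPM in WT samples and 16.49 and 21.16 in C3G KO samples. It was the only one of the 10 genes with both C3G KO samples below all WT samples on both scales. The log2 fold change was -0.53 after scaling (SE 0.11, limma-adjusted p = 0.0149), -1.21 as deposited (limma, adjusted p = 8.55e-05) and -0.54 with the length and GC correction (limma, adjusted p = 0.0105). Without C3G KO replicate 2 it was -0.44 and no longer passed after scaling (limma, adjusted p = 0.0830).

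The genes of other enzymes of threonine and glycine breakdown did not fall with Tdh after scaling. Of 7 tested, 3 rose, none fell and 4 did not pass after scaling, with a median log2 fold change of 0.22 (0.0052 for all tested genes), or -0.45 as deposited. As deposited none of the 7 rose and 3 fell, beside 1.45% and 56.8% of all tested genes. Gcat, whose enzyme takes up the product of threonine dehydrogenase, had 14.11, 13.70 and 13.96 TPM in WT samples and 14.45 and 18.59 in C3G KO samples, with both C3G KO samples above WT even as deposited. Its log2 fold change was 0.88 after scaling (limma, adjusted p = 0.00186) and 0.22 as deposited (limma, adjusted p = 0.430). Gldc, the decarboxylase of the glycine cleavage system, had 0.50 after scaling (limma, adjusted p = 0.00588) and, turned about, -0.17 as deposited.

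Tdh lies in a stretch of chromosome 14 whose genes were lower. Of 10 other tested genes within 1 Mb of Tdh, 7 fell, none rose (1 at an unadjusted p under 0.05 from limma) and 3 did not pass after scaling, with a median log2 fold change of -0.61. Ctsb, which encodes the lysosomal protease cathepsin B, Ints6, which encodes a subunit of the Integrator complex, and Mtmr9, next to Tdh, had log2 fold changes of -0.97, -0.90 and -0.86 (limma, adjusted p = 0.000693, 0.00259 and 0.000458). The 3 that did not pass were Fdft1 (0.24, and -0.39 as deposited), Msra (0.043, and -0.41 as deposited) and the microRNA gene Mir8098 (-0.011). Mir8098 had 0, 5.59 and 0 TPM in WT and 0 and 1.90 in C3G KO, so its direction is not resolved (SE 0.86). Fdft1 passed as higher in 1 of 17 alternatives (lowest limma-adjusted p = 0.0262). Over the whole of chromosome 14, 250 of 441 tested genes were lower, or 56.7%, against 9.32% to 18.0% on the other chromosomes, and the median log2 fold change was -0.46. The value of Tdh lay close to that median. Whether the lower TPM of Tdh belongs to the gene or to the chromosome was not tested.

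**Figure D3:**
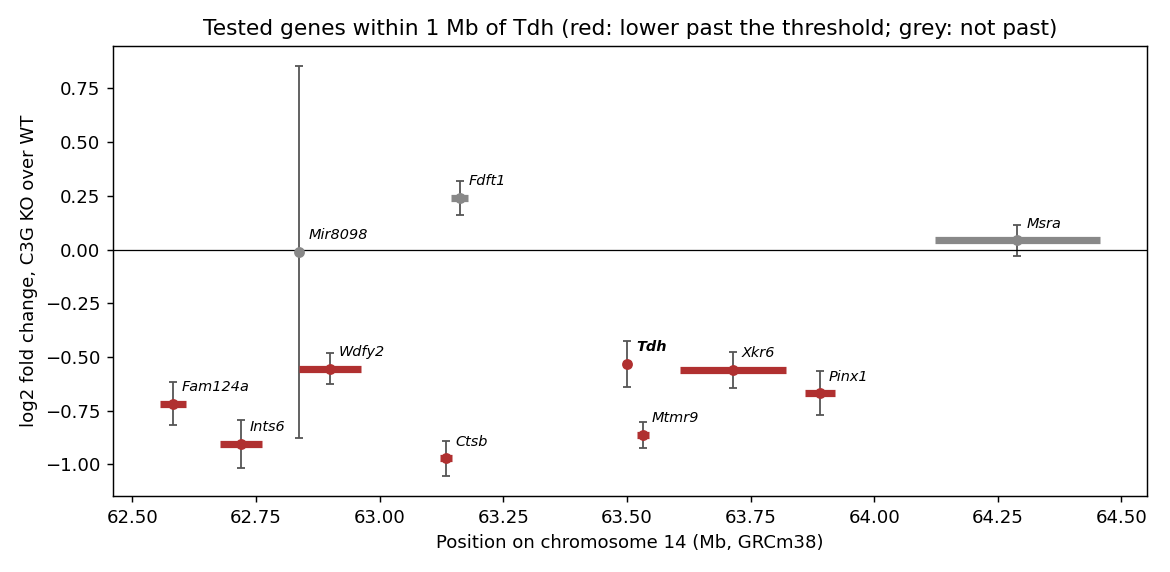
log2 fold change after median-of-ratios scaling of the tested genes within 1 Mb of Tdh, against their position on chromosome 14 in Mb (horizontal bars span each gene, vertical bars are ± 1 standard error from limma with 3 WT and 2 C3G KO samples). Tdh and 7 neighbours (red) are lower past the threshold, and 3 (grey) are not past it.

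Ratios between members within a sample do not depend on any scaling between samples. Zfp42, chosen for this after its values were seen, served as the denominator. The ratio of Tcl1 to Zfp42 was 0.153, 0.147 and 0.166 in WT 1 to 3 and 0.270 and 0.263 in C3G KO 1 and 2. For Dppa3 the mean ratio was 0.0272 ± 0.00121 (SD, n = 3) in WT and 1.84 times as high in C3G KO. For Fbxo15 it went from 0.332 ± 0.0126 (SD, n = 3) to 0.485 ± 0.00241 (SD, n = 2) and for Dppa5a from 11.9 ± 1.15 to 16.9 ± 2.30. These 4 ratios were higher in both C3G KO samples than in any WT sample, as were the ratios of 13.7% of the tested genes other than Zfp42, while 49.3% were lower in this way. The ratio of Tdh was lower by the same comparison, going from 0.381 ± 0.0318 (SD, n = 3) to 0.227 ± 0.0252 (SD, n = 2), and that of Dppa4 went from 0.350 ± 0.00197 to 0.318 ± 0.0317. The ratios of Dppa2, Utf1 and Gdf3 overlapped between the groups. The 10 genes thus did not keep their proportions to one another, while the level at which Zfp42 itself stood cannot be read from ratios.

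**Figure D4:**
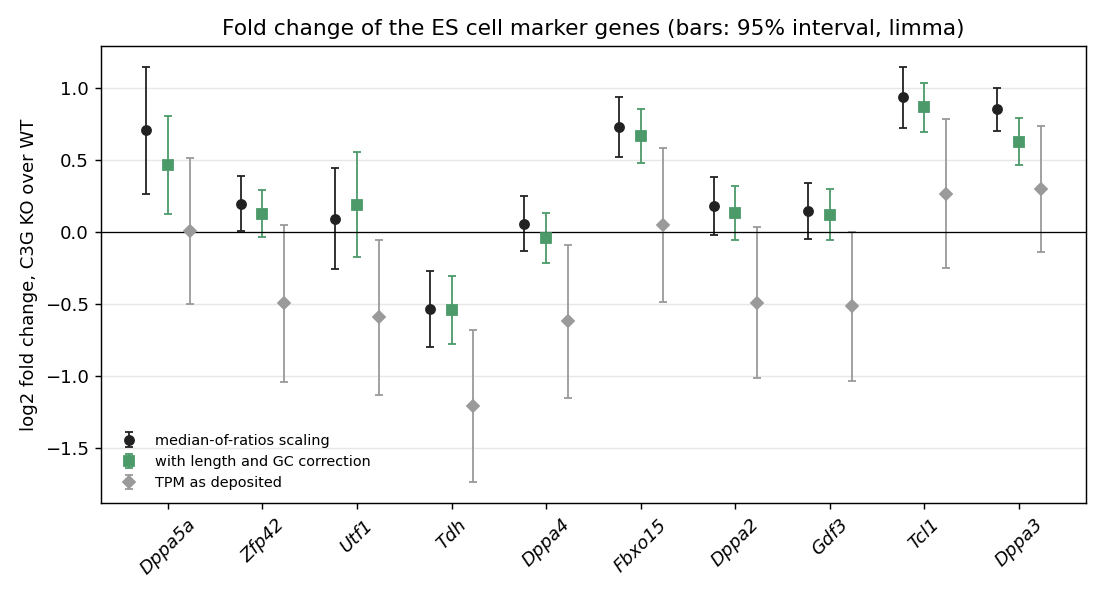
log2 fold change of each ES cell marker gene, C3G KO over WT (3 and 2 samples), after median-of-ratios scaling (black), with the length and GC correction (green) and for TPM as deposited (grey), with 95% intervals from limma. The intervals of Tcl1, Dppa3, Fbxo15 and Dppa5a lie above 0 with scaling but include 0 as deposited, and those of Tdh lie below 0 in all 3.

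Other marker lists put the 10 genes in context. Of 12 core and naive pluripotency factors, 1 rose after scaling, 2 fell and 9 did not pass, with a median log2 fold change of 0.13 (0.0052 for all tested genes), or -0.53 as deposited. As deposited none of the 12 rose and 5 fell, beside 1.45% and 56.8% of all tested genes. Prdm14 rose with 0.45 (limma, adjusted p = 0.00603), where it had -0.032 as deposited, and the naive factors Klf4 and Klf5 fell with -0.51 and -0.45 (limma, adjusted p = 0.0348 and 0.0257). Klf4 did not pass with the length and GC correction (limma, adjusted p = 0.0626), nor without WT replicate 1 (-0.47), WT replicate 2 (-0.48) or C3G KO replicate 1 (-0.32). Klf5 lies on chromosome 14, as Tdh does, with a value close to the median of that chromosome, and did not pass without WT replicate 1 (-0.38) or 2 (-0.44) or C3G KO replicate 1 (-0.38) or 2 (-0.52). Of 26 other tested ES cell markers, 11 rose, 1 fell and 14 did not pass after scaling, with a median of 0.21. As deposited none of the 26 rose and 10 fell, beside 1.45% and 56.8% of all tested genes. Their median was then -0.47, and that of all tested genes -0.55. After scaling, in contrast, 14.1% of all tested genes were higher and 16.6% lower. The largest rises were those of Fgf4, the growth factor that primes ES cells for differentiation, and the Ras-like gene Eras, with log2 fold changes of 0.73 and 0.62 (limma, adjusted p = 0.00168 and 0.00992), and that of Eras was -0.044 as deposited. Eras no longer passed without C3G KO replicate 1 (0.51). The fall was that of the zinc finger gene Zfp296, with -0.52 (limma, adjusted p = 0.00226).

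Because several members are also germ line genes, a list of germ cell genes was examined. Of 12 tested, 4 rose, 4 fell and 4 did not pass after scaling, and the median log2 fold change was 0.013 (0.0052 for all tested genes), or -0.49 as deposited. Prdm1, a regulator of germ cell specification, and Stra8, a meiosis gene, rose with 0.58 and 0.57 (limma, adjusted p = 0.00365 and 0.0148), the second not without C3G KO replicate 2 (0.47). Ddx4, an RNA helicase gene of germ cells, and Taf7l fell with -0.67 and -0.54 (limma, adjusted p = 0.00235 and 0.00832), the second not with quantile normalization (-0.36, limma-adjusted p = 0.0529). After scaling the 12 genes thus had no common direction, and as deposited none rose and 6 fell, beside 1.45% and 56.8% of all tested genes.

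Markers of other cell types differed between the groups and were mostly low in both, with Sparc an exception. The 7 trophoblast markers summed to 8.24, 7.77 and 6.96 TPM in WT samples and to 1.05 and 1.19 in C3G KO samples, with Krt7 the most abundant, and Krt7 and Cdx2 fell with log2 fold changes of -1.46 and -0.73 after scaling (limma, adjusted p = 0.000574 and 0.00227). Of 3 tested, 2 fell. The 9 fibroblast markers summed to 7.15, 6.74 and 5.06 TPM in WT and to 1.24 and 1.95 TPM in C3G KO, with Thy1 the most abundant, and the 3 tested (Col1a1, Thy1 and Twist1) fell after scaling. Thy1 and Twist1 no longer passed without WT replicate 1 (-0.34 and -0.44), WT replicate 2 (-0.33 and -0.42) or C3G KO replicate 1 (-0.41 and -0.33), nor Thy1 without C3G KO replicate 2 (-0.30) or Twist1 with the length and GC correction (-0.35). Their defining genes were near 0, with Lum at most 0.01 TPM and Dcn at most 0.13 TPM in any sample.

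The 9 mesoderm and definitive endoderm markers summed to 10.58, 7.76 and 7.43 TPM in WT and to 2.32 and 4.36 TPM in C3G KO, and of 2 tested, T, which encodes Brachyury and was the most abundant, fell with a log2 fold change of -1.15 (limma, adjusted p = 0.00254). The 10 primitive endoderm markers summed to 46.84, 44.52 and 42.74 TPM in WT and to 18.60 and 28.73 TPM in C3G KO, with Sparc the most abundant. Without Sparc the other 9 summed to 6.86, 6.02 and 5.56 TPM in WT and to 6.78 and 12.85 TPM in C3G KO, so that C3G KO 1 lay within the WT range. Gata6, Sox17, Pdgfra and Amn lay above all WT samples in both C3G KO samples even as deposited. Pdgfra was at 0.47, 0.39 and 0.50 TPM in WT and 0.75 and 1.49 TPM in C3G KO. These genes were too low to be tested, and values this low are uncertain. Gata4, Sox7 and Foxa2 were also too low to be tested, and their values are not given here. Sparc fell with -0.76 (limma, adjusted p = 0.00153), while Cubn and Dab2 rose with 1.31 and 0.69 (limma, adjusted p = 0.000291 and 0.0247), the second neither as deposited (0.22) nor without WT replicate 1 (0.69) or 2 (0.66). The value of Dab2 was 0.97 without C3G KO replicate 1 and 0.40 without C3G KO replicate 2. The 7 neuroectoderm markers summed to 28.49, 25.11 and 24.47 TPM in WT and to 18.12 and 24.54 TPM in C3G KO, with Tubb3 the most abundant, whereas after scaling the sums were higher in C3G KO (21.3, 20.6 and 22.2 in WT, 29.3 and 27.1 in C3G KO). Tubb3 rose with 0.93 after scaling (limma, adjusted p = 0.00342) and did not pass as deposited (0.28), while Nes fell with -1.28 (limma, adjusted p = 0.000437). Of 4 tested in this list 1 rose, 1 fell and 2 did not pass, and Neurog2 was listed at 0 in every sample. The part of such cells in the marker gene results was not tested.

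The tested genes whose profile over the 5 samples was most like the mean of the 10 marker genes, by the root mean square distance of centred log2 values after scaling, were H1f0 (0.0155), Ncbp1 (0.0159), Ddx18 (0.0161), Osgepl1 (0.0161) and Ndufs1 (0.0197). Among the members, Zfp42 was nearest to that mean (0.0705) and Tdh farthest from it (0.434).

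Promoters were compared for the members with an entry in the RefSeq table (GRCm38.p6), which were 3 of the 10, Utf1, Zfp42 and Tcl1. The 250 bases before the start were searched on both strands for 6 motifs, those bound by ESRRB, OCT4, SOX2, KLF and STAT proteins and the TATA box. ATTTGCAT, the octamer motif of OCT4, was found in the promoter of Zfp42, beginning at base -186, and in 1.60% of all 32851 promoters. The KLF motif, GGGNGTGG, was found there on the opposite strand, read as CCACACCC from base -75, and in 15.9% of all promoters. No match was found in the windows of Utf1 and Tcl1, and the other 4 motifs were in 4.08% (ESRRB), 3.02% (SOX2), 7.02% (STAT) and 12.4% (TATA box) of all promoters. Utf1 held 14 CpG, Zfp42 9 and Tcl1 7 in the 250 bases, against a median of 6 over all promoters. The sequences shown are the parts outside annotated transcripts, 183 bases for Utf1, 194 for Tcl1 and all 250 for Zfp42. The shown parts of Utf1 and Tcl1 therefore hold fewer CpG than these counts. The sequences are given 5′ to 3′ on the strand of the gene, outside annotated transcripts, with motif matches in capitals, since Tcl1 rose after scaling while Zfp42 and Utf1 did not pass: for Utf1 chr7:139943606-139943788 (plus strand), for Zfp42 chr8:43307010-43307259 (minus strand) and for Tcl1 chr12:105222794-105222987 (minus strand).
Utf1: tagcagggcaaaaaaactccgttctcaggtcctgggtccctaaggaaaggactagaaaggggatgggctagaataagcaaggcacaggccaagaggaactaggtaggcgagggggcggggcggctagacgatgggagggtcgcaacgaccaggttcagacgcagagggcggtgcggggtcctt
Zfp42: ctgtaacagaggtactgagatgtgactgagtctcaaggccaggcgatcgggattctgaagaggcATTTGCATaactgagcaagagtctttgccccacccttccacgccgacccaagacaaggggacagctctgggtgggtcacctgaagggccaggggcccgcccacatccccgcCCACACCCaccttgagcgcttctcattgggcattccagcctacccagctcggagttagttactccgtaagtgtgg
Tcl1: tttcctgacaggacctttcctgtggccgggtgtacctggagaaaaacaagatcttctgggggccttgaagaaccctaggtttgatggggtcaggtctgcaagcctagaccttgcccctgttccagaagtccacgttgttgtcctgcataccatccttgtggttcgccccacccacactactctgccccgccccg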

How the data were processed

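RNA-seq of 3 WT and 2 C3G KO samples was used. The authors deposited TPM for 142647 Ensembl transcripts (the submitters' processing notes name bcl2fastq 2.20, FastQC 0.11.7, STAR 2.5.1b, RSEM 1.2.31 and GRCm38), and these hold no counts, so depth is unknown. Of the transcripts 141429 were matched to GENCODE M21 and TPM were summed per symbol. Genes with at least 1 TPM in at least 2 samples were tested with limma 3.58.1 (R 4.3.3, trend, two-sided) on log2(TPM + 1) after median-of-ratios scaling, with Benjamini-Hochberg adjustment over 12514 genes and a threshold of 0.05. TPM as deposited, other scalings, pseudocounts and filters, a length and GC correction (smooth span 0.5), a replicate block and each sample left out were the alternatives. The procedure was also run on simulated data as a check of the code, and no result of that run is used here. Tables used Python 3.11.15 and pandas 2.3.3.

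Members and lists were chosen with earlier results of these data known. Dppa3, Tcl1 and Fbxo15 are labelled in a plot of the study made from these samples, so their direction is not independent evidence. Named genes are the members, Rapgef1, from each list the 2 genes most raised and the 2 most lowered, core factors, cell type markers, some of the neighbours within 250 kb (1 Mb for Tdh), the 5 nearest profiles, relatives and pseudogenes of members, Gapdh and Actb.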

Additional observations from a re-analysis of the deposited data

How the results depend on the processing

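Of all tested genes, 1759 were higher and 2082 lower after median-of-ratios scaling, against 181 and 7108 as deposited and 706 and 3731 with protein-coding scaling, and 1144 were lower with the filter of 5 TPM, which tests fewer genes. With 1 sample left out the counts were 889 to 1558 higher and 1323 to 1843 lower, and of the marker genes 3 to 4 were higher and 0 to 1 lower. As deposited 0 marker genes were higher and 2 lower. Where 1 C3G KO sample is left, it is assumed to vary like WT. Dppa3, Tcl1 and Fbxo15 lost their call only as deposited, and Dppa3 was not tested with the filter of 5 TPM. Dppa5a also lost it with quantile normalization, without a filter and without WT replicate 1, WT replicate 2 or either C3G KO sample, while its log2 fold change stayed at 0.59 to 0.83 with 1 sample left out. Some losses of calls are not named one by one. The call was kept in 12 of 17 alternatives for Dnmt3b, Fbxo22, Klf4 and Klf5 and in 7 of 17 for Rbx1 and Smad2. It was kept in 11 of 16 for Dab2 and Thy1, 10 of 16 for Foxj2 and 9 of 16 for Twist1.

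The replicate numbers do not pair the samples in the labels, and only 2 numbers are shared. By library name C3G KO 2 carries the number of WT 3 and not that of WT 2. The replicate block used the replicate numbers, and a block by library name was not fitted. With the replicate block 1488 genes were higher and 1815 lower, 1501 and 1817 with the length and GC correction added, and 3 marker genes were higher and 1 lower in both fits, without Dppa5a. The replicate block alone also ended the calls of Akt2 (-0.27), Slc2a3 (-0.38) and Smad2 (-0.21). With the length and GC correction added it ended those of Rapgef1 (-0.20), Rbx1 (0.19), Akt2 (-0.18), Slc2a3 (-0.31), Foxj2 (-0.29), Twist1 (-0.38) and Smad2 (-0.16). Mir8098 was lower past the threshold in the fit with that correction (-0.66), although it was at 0 TPM in most samples. Deviations of same-numbered samples correlated with -0.18 (number 1) and 0.18 (number 2), but the deviations of 2 C3G KO samples mirror each other by construction, so this says nothing about pairing.

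Directions turned as follows, and the cause was not tested. As deposited the log2 fold changes were -0.49 (Dppa2), -0.62 (Dppa4), -0.49 (Zfp42), -0.59 (Utf1), -0.51 (Gdf3), -0.52 (Pou5f1), -0.39 (Nanog), -0.57 (Esrrb), -0.032 (Prdm14), -0.044 (Eras), -0.24 (Dnmt3b), -0.37 (Rbx1), -0.36 (Fbxo22), -0.17 (Gldc), -0.39 (Fdft1), -0.41 (Msra), -0.30 (Gapdh), -0.29 (H1f0), -0.32 (Ncbp1), -0.34 (Ddx18), -0.15 (Osgepl1) and -0.33 (Ndufs1). With protein-coding scaling they were -0.031 (Dppa2), -0.16 (Dppa4), -0.022 (Zfp42), -0.12 (Utf1), -0.064 (Gdf3), -0.044 (Pou5f1), -0.10 (Esrrb) and -0.10 (Msra), and with quantile normalization -0.072 (Dppa4), -0.12 (Zfp42), -0.032 (Utf1), -0.30 (Pou5f1), -0.025 (Esrrb), -0.069 (Gapdh) and 0.028 (Mir8098). Mir8098 was at 0.38 with a pseudocount of 0.1. Dppa4 was at -0.041 and Msra at -0.0070 with the length and GC correction, and at -0.032 and -0.023 with the replicate block added. Utf1 was at -0.0096 with the replicate block. With 1 sample left out Dppa4 ranged from -0.022 to 0.14, Utf1 from -0.076 to 0.27, Msra from -0.019 to 0.10 and Mir8098 from -0.83 to 0.82. Sox2, Tdgf1 and Cyb5a also turned as deposited (-0.46, -0.57 and -0.14), and their other alternatives are not listed here.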
